A study of Saccharomyces cerevisiae with 7 samples.

Results

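The histone genes of budding yeast described here are the 10 genes HTA1, HTA2, HTB1, HTB2, HHT1, HHT2, HHF1, HHF2, HHO1 and HTZ1, taken by name from the 6225 systematic gene names of the array. Histones are the basic proteins around which DNA is wrapped in nucleosomes. A nucleosome core is built from H2A (HTA1 and HTA2), H2B (HTB1 and HTB2), H3 (HHT1 and HHT2) and H4 (HHF1 and HHF2), whose 8 genes are called the core histone genes below. HHO1 encodes the linker histone H1, and HTZ1 encodes the H2A variant H2A.Z, which the SWR1 complex places in nucleosomes near promoters. The core genes are transcribed in S phase, when new DNA has to be packaged, and their transcripts, unlike most animal histone mRNAs, carry poly(A) tails. Each H2A gene lies next to an H2B gene and each H3 gene next to an H4 gene. In the RefSeq annotation all 4 of these pairs (HTA1-HTB1, HTA2-HTB2, HHT1-HHF1 and HHT2-HHF2) are neighbours on opposite strands and so are transcribed away from a shared promoter region.

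Transcripts were measured in the haploid laboratory strain BY4741 (MATa his3Δ1 leu2Δ0 met15Δ0 ura3Δ0), collected in mid-log phase from SC–Ura medium, with 1 one-colour microarray for each of 7 strains. All strains carried the multicopy gTOW plasmid pTOW40836, which holds URA3 and leu2d. The empty vector had no GFP. GFP and GFP-Deg, a GFP with a degron that sends it to the proteasome, were expressed from the TDH3 promoter. SS-GFP, with a signal sequence for the secretory pathway, MTS-GFP, with a mitochondrial targeting signal, and GFPm3, a mutant that misfolds, were expressed from the PYK1 promoter. NES-GFP, with a nuclear export signal, was expressed from the weaker HXT7 promoter, so that promoter and modification cannot be told apart between constructs with different promoters. Each group was 1 culture on 1 array, so no difference below could be tested against the spread between cultures, and all values are descriptions of these 7 arrays.

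Each histone gene had 1 probe printed as 7 spots, of which 6 or 7 were used, and every spot was well above background and none was marked saturated. The 75th percentile of the signal ran from 3719 to 5626 between arrays. Values were therefore expressed as log2 signal over that percentile, and the deviation of a gene is this value minus its mean over the 7 arrays. The pooled SD between the spots of a probe was 0.05 for the histone genes and 0.11 for all probes on the log2 scale, and it covers the measurement on an array only. Slide 2 held the arrays of GFP, GFP-Deg and SS-GFP, and slide 1 held the other 4 arrays. The a-specific genes STE2, MFA1, MFA2, BAR1, AGA2 and STE6 were well above background on all 7 arrays with signals of 1571 to 36383. Of the alpha-specific genes, STE3, SAG1 and MF(ALPHA)2 were also well above background on all 7 arrays and MF(ALPHA)1 on 6. Their signals were 14 to 47 for MF(ALPHA)1 and MF(ALPHA)2 and 475 to 1172 for STE3 and SAG1.

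All 10 histone genes had their lowest value in the GFPm3 array. The median deviation of the 8 core histone genes was -0.60 in GFPm3, -0.25 in MTS-GFP and -0.28 in NES-GFP, compared with 0.19 in the empty vector, 0.38 in GFP, 0.30 in GFP-Deg and 0.27 in SS-GFP. The median of all 6225 genes stayed between -0.05 and 0.04 in these arrays. All 10 histone genes were above their mean in the empty vector, GFP, GFP-Deg and SS-GFP arrays and below it in the GFPm3, MTS-GFP and NES-GFP arrays. All 3 arrays of slide 2 were thus among the 4 higher arrays. In whole cultures, fewer cells transcribing histone genes and less histone mRNA per cell cannot be told apart. The low position of GFPm3 held in every scaling tried, whereas those of MTS-GFP and NES-GFP did not: with loess normalization, which removes differences between arrays that vary with signal strength, the core medians were -0.52 in GFPm3, 0.07 in MTS-GFP and -0.08 in NES-GFP.

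**Figure D1:**
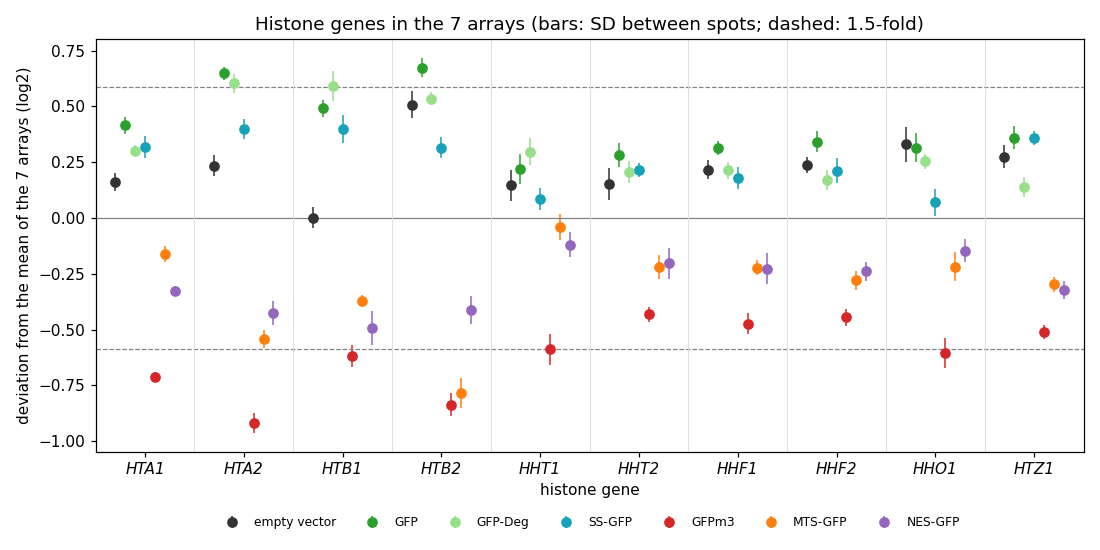
Deviation of each histone gene from its mean over the 7 arrays (log2, vertical axis) for the 10 genes on the horizontal axis, with points coloured by array, bars showing the SD between spots, and dashed lines at 1.5-fold (0.585). The GFPm3 point is the lowest for every gene and the spread is widest for HTA2 and HTB2.

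The H2A genes HTA1 and HTA2 encode nearly the same protein from separate loci. The processed signal of HTA2 was 43127 in the empty vector, 48281 in GFP, 50169 in GFP-Deg, 47273 in SS-GFP, 23434 in GFPm3, 27274 in MTS-GFP and 34714 in NES-GFP, with SDs between spots of 736 to 1481. HTA2 was thus low in GFPm3 and MTS-GFP already before any scaling. Its deviations were 0.23 in the empty vector, 0.65 in GFP, 0.60 in GFP-Deg, 0.40 in SS-GFP, -0.92 in GFPm3, -0.54 in MTS-GFP and -0.43 in NES-GFP. The range of 1.56 was the widest of the 10 histone genes and equals 2.96-fold.

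HTA1 deviated by 0.16 in the empty vector, 0.42 in GFP, 0.30 in GFP-Deg, 0.32 in SS-GFP, -0.71 in GFPm3, -0.16 in MTS-GFP and -0.33 in NES-GFP. Its range was 1.13. GFP-Deg and SS-GFP lay 0.02 apart, which is within the spot SD of up to 0.05, and the order of these arrays cannot be read for this gene. HTA1 was lower in NES-GFP than in MTS-GFP, whereas HTA2 had the opposite order. With loess normalization HTA2 was at -0.35 in MTS-GFP and -0.34 in NES-GFP against the empty vector. These lie closer together than its spot SDs of 0.04 and 0.05, so the order for HTA2 cannot then be read.

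HTB1 and HTB2 encode H2B and lie beside HTA1 and HTA2, respectively. The processed signal of HTB2 was 29284 in the empty vector, 27632 in GFP, 26879 in GFP-Deg, 25084 in SS-GFP, 13929 in GFPm3, 12980 in MTS-GFP and 19689 in NES-GFP, with SDs between spots of 495 to 1189. Its deviations were 0.51 in the empty vector, 0.67 in GFP, 0.53 in GFP-Deg, 0.32 in SS-GFP, -0.84 in GFPm3, -0.78 in MTS-GFP and -0.41 in NES-GFP. HTB2 was the histone gene for which the lowest array depended on the scaling: the gap between GFPm3 and MTS-GFP was 0.05, near the spot SDs of 0.05 and 0.07, and MTS-GFP was the lower array under quantile normalization, without scaling, and with normexp background correction followed by quantile normalization.

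HTB1 deviated by 0.0009 in the empty vector, 0.49 in GFP, 0.59 in GFP-Deg, 0.40 in SS-GFP, -0.62 in GFPm3, -0.37 in MTS-GFP and -0.49 in NES-GFP. Its signal was highest in GFP-Deg, at 59935, compared with 44118 in the empty vector. HTB1 and HHT1 were the histone genes highest in GFP-Deg, HHO1 was highest in the empty vector, and the remaining 7 were highest in GFP. This count is not firm, since no histone gene was highest in GFP without scaling.

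The H3 and H4 genes varied less with the percentile scaling. The range over the 7 arrays was 0.89 for HHT1, 0.71 for HHT2, 0.79 for HHF1 and 0.79 for HHF2, compared with 1.13 to 1.56 for the H2A and H2B genes. HHT1 deviated by 0.15 in the empty vector, 0.22 in GFP, 0.30 in GFP-Deg, 0.09 in SS-GFP, -0.59 in GFPm3, -0.04 in MTS-GFP and -0.12 in NES-GFP, so that MTS-GFP was within the spot SD of 0.06 of the mean of the 7 arrays. HHT2 deviated by 0.15, 0.28, 0.21, 0.21, -0.43, -0.22 and -0.20 in the same order of arrays. These values place GFPm3 well below a middle group of MTS-GFP and NES-GFP, which for HHT2 lay closer to each other than the spot SDs. With loess normalization HHT1 was highest in MTS-GFP, at 0.26 against the empty vector, and lowest in GFPm3, at -0.57. HTA1 then ran from 0.13 in GFP to -0.71 in GFPm3, so the ranges of HHT1 and HTA1 were close. The median deviation in GFPm3 was then -0.70 for the H2A and H2B genes and -0.38 for the H3 and H4 genes.

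For the H4 genes, HHF1 deviated by 0.22 in the empty vector, 0.31 in GFP, 0.21 in GFP-Deg, 0.18 in SS-GFP, -0.47 in GFPm3, -0.22 in MTS-GFP and -0.23 in NES-GFP. HHF2 deviated by 0.24, 0.34, 0.17, 0.21, -0.44, -0.28 and -0.24 in the same order. Both H4 genes thus fell into a group of 4 arrays above the mean and a group of 3 arrays below it, with no array in between. With loess normalization this grouping did not hold for HHF1. Its difference from the empty vector in MTS-GFP was then 0.02, compared with -0.18 for HHF2. The processed signal of HHF1 was 55175 in the empty vector and 41335 in GFPm3, and that of HHF2 was 24937 and 18764. The lowest mean signal of a core histone gene on any array was 12980 and the highest 59935. Whether signal strength had a part in the smaller ranges of the H3 and H4 genes was not tested.

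**Figure D2:**
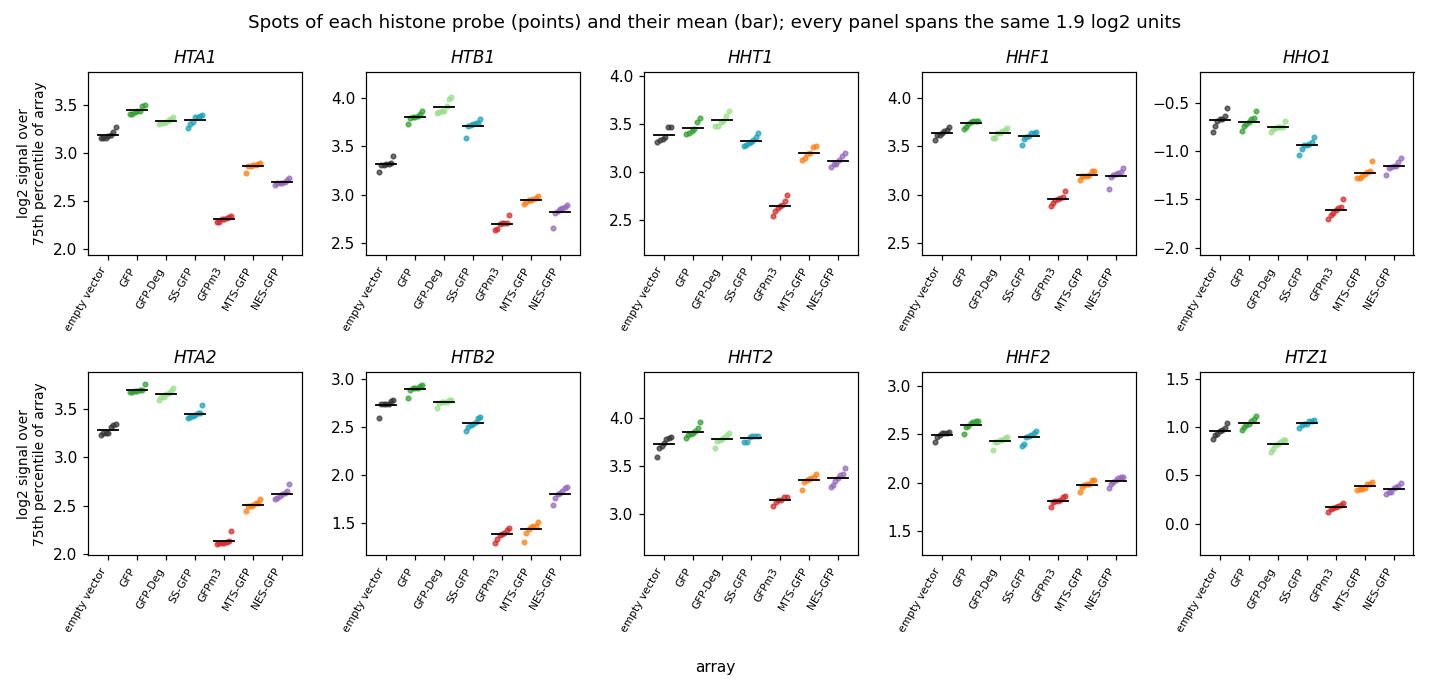
Log2 signal over the 75th percentile of each array (vertical axis, same span in each panel) for every spot used of the 10 histone probes, with the spots sorted by value within an array and a bar at their mean; arrays are on the horizontal axis. The spots of the GFPm3 array lie below those of the empty vector in all 10 panels, and for HTB2 they overlap those of MTS-GFP.

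With the percentile scaling, the variant and linker histone genes were high and low in the same arrays as the core genes. HTZ1 deviated by 0.27 in the empty vector, 0.36 in GFP, 0.14 in GFP-Deg, 0.36 in SS-GFP, -0.51 in GFPm3, -0.30 in MTS-GFP and -0.32 in NES-GFP. HHO1 deviated by 0.33, 0.32, 0.25, 0.07, -0.61, -0.22 and -0.15 in the same order, with a processed signal of 2765 in the empty vector and 1745 in GFPm3. In SS-GFP, HHO1 lay near its mean. Over the 7 arrays, the Pearson correlation between any pair of histone genes was 0.83 to 0.99, with a median of 0.95 over 45 pairs. These correlations share the same arrays, scaling and, in part, similar sequences, and they are for the percentile scaling. With loess normalization, the difference of MTS-GFP from the empty vector was -0.54 for HHO1 and -0.44 for HTZ1. The core median difference was then 0.05, with single core genes from -0.95 for HTB2 to 0.26 for HHT1. HHO1 and HTZ1 thus did not follow the core median in MTS-GFP in that setting.

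Counted by a fold of 1.5 from the mean of the 7 arrays, 6 of the 10 histone genes (HTA1, HTA2, HTB1, HTB2, HHT1 and HHO1) passed in at least 1 array, and the share among all genes was 31.7%. None passed 2-fold, which 8.96% of all genes did. In GFPm3 the same 6 histone genes were over 1.5-fold lower, where 6.15% of all genes were lower and 6.01% higher, and the other 4 histone genes had deviations of -0.43 to -0.51. With loess normalization 4 were lower (HTA1, HTA2, HTB2 and HHO1), and without scaling 2 (HTA2 and HTB2). Against the mean of the same slide no histone gene was over 1.5-fold lower in GFPm3. HTA2 and HTB2 were over 1.5-fold higher in GFP, against 5.53% of all genes (2.92% lower). HTA2 and HTB1 were over 1.5-fold higher in GFP-Deg, against 9.46% of all genes (4.24% lower). With loess or quantile normalization or without scaling, no histone gene was over 1.5-fold higher in GFP or GFP-Deg. HTB2 was the only one over 1.5-fold lower in MTS-GFP, against 7.74% of all genes (6.25% higher), and it was not past 1.5-fold with loess. No histone gene passed 1.5-fold in the empty vector, SS-GFP or NES-GFP arrays. There the shares of all genes were 1.16% higher and 5.11% lower in the empty vector, 3.36% each way in SS-GFP, and 2.92% higher and 4.45% lower in NES-GFP.

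The empty vector is the control for the 6 GFP constructs, whose differences from it all share that 1 array. In GFPm3, which was on the same slide, all 10 histone genes were below the empty vector and 9 of them, all but HHT2, by more than 1.5-fold, against 6.91% of all genes. The log2 difference was -1.34 for HTB2, -1.15 for HTA2, -0.93 for HHO1, -0.87 for HTA1, -0.78 for HTZ1, -0.73 for HHT1, -0.69 for HHF1, -0.68 for HHF2, -0.62 for HTB1 and -0.58 for HHT2. HTB2 and HTA2 were the 2 histone genes past 2-fold, a fold at which the share of all genes was not counted for this difference. The median over the 8 core genes was -0.71, and it was -0.55 after loess normalization, when 5 histone genes were past 1.5-fold (share of all genes not counted). Without any scaling it was -0.44, so the raw signals of the core histone genes were lower in GFPm3 although the median of all genes was higher by 0.33.

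MTS-GFP and NES-GFP, also on slide 1, were closer to the empty vector. In MTS-GFP the core median difference was -0.41 and HTA2 and HTB2 were over 1.5-fold lower, against 12.1% of all genes. In NES-GFP it was -0.48 and HTA2, HTB2 and HTZ1 were over 1.5-fold lower, against 6.65% of all genes. HTB2 led in both, at -1.29 in MTS-GFP and -0.92 in NES-GFP. After loess normalization the core median was 0.05 in MTS-GFP and -0.16 in NES-GFP. HTB2 alone was then past 1.5-fold, at -0.95 and -0.67, while HTA2 was at -0.35 in MTS-GFP and -0.34 in NES-GFP and HTZ1 at -0.49 in NES-GFP. Without scaling no histone gene was past 1.5-fold in NES-GFP. The H3 and H4 median against the empty vector was -0.41 in MTS-GFP and became 0.06 with loess.

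The arrays of slide 2 lay near or above the empty vector. The core median difference was 0.15 in GFP, 0.10 in GFP-Deg and 0.02 in SS-GFP. HTB1 in GFP-Deg, at 0.59, was the only histone gene over 1.5-fold higher, against 12.0% of all genes. It lay just past the threshold, and with loess (0.47), quantile normalization (0.42), no scaling or the median of spots it was not past it. The other H2A and H2B genes were also above the empty vector in GFP, with 0.41 for HTA2, 0.25 for HTA1 and 0.17 for HTB2 beside 0.49 for HTB1. Since all 3 of these arrays were on the other slide, slide and construct cannot be told apart in these differences. When each array was set against the mean of its own slide, the core medians were 0.07 in GFP, 0.00 in GFP-Deg and -0.08 in SS-GFP on slide 2, and 0.41 in the empty vector, -0.37 in GFPm3, -0.05 in MTS-GFP and -0.04 in NES-GFP on slide 1.

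**Figure D3:**
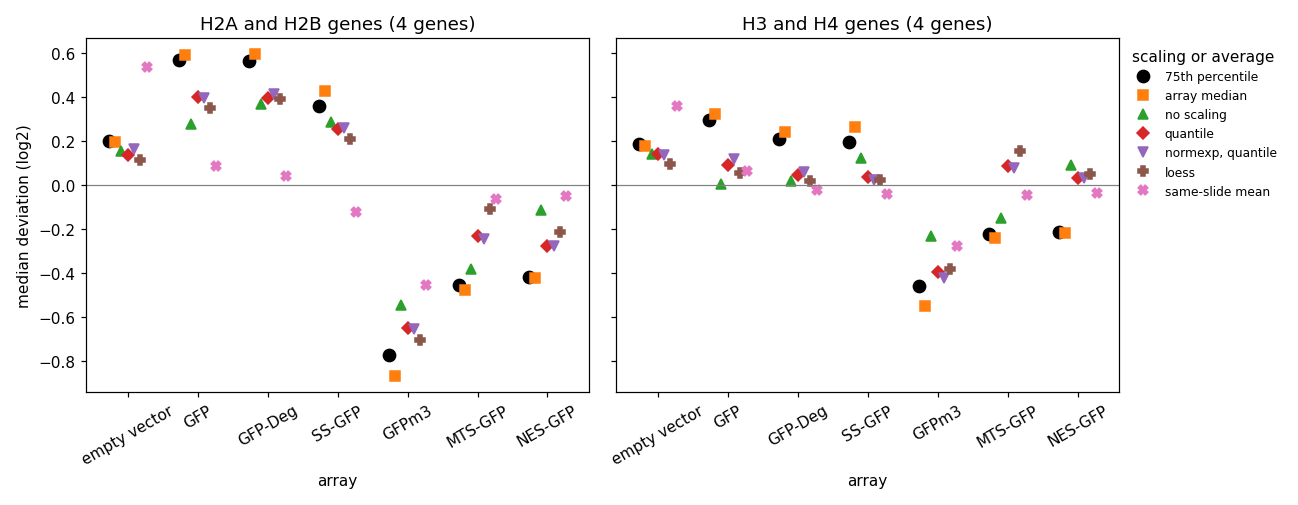
Median deviation (log2, vertical axis) of the 4 H2A and H2B genes (left) and of the 4 H3 and H4 genes (right) in each array (horizontal axis), under 6 scalings and, with the 75th percentile, against the mean of the same slide; each symbol is 1 setting. GFPm3 is below 0 in every setting, whereas the H3 and H4 genes of MTS-GFP lie on both sides of 0.

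Constructs that share a promoter were compared next. Between GFP-Deg and GFP, both from the TDH3 promoter and both on slide 2, the core histone genes differed by a median of -0.09, with single genes between -0.17 and 0.10 and none past 1.5-fold. Among the constructs with the PYK1 promoter, all 10 histone genes were over 1.5-fold higher in SS-GFP than in GFPm3, against 12.0% of all genes, with a core median of 0.85. With loess or quantile normalization 6 were, none of them an H3 or H4 gene, and without scaling 4, and the share of all genes was not counted in these settings. With the 75th percentile HTA2 differed most, by 1.31. These arrays were on different slides. On the same slide, MTS-GFP exceeded GFPm3 by a core median of 0.25, from 0.05 for HTB2 to 0.55 for HTA1, and by 0.53 after loess normalization. SS-GFP exceeded MTS-GFP by a core median of 0.49, with HTA2, HTB1, HTB2 and HTZ1 past 1.5-fold, against 16.4% of all genes, but this median was 0.04 after loess normalization, when HTB2 alone was past 1.5-fold.

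The 2 copies of a core histone gene did not always move by the same amount. The difference of the deviations, HTA2 minus HTA1, was 0.07 in the empty vector, 0.23 in GFP, 0.30 in GFP-Deg, 0.08 in SS-GFP, -0.20 in GFPm3, -0.38 in MTS-GFP and -0.10 in NES-GFP. HTA2 thus moved further than HTA1 in each array, in both directions. For HTB2 minus HTB1 the values were 0.51, 0.18, -0.06, -0.08, -0.22, -0.41 and 0.08 in the same order. The gap was widest in the empty vector, where HTB2 was high and HTB1 was at its mean.

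The copies of H3 and H4 differed less. HHT2 minus HHT1 ran from -0.18 in MTS-GFP to 0.16 in GFPm3, and HHF2 minus HHF1 from -0.06 to 0.03, which is near the spot SD. With loess normalization the H4 difference ran from -0.16 to 0.11, and the H3 difference from -0.15 to 0.16. The proteins of the H3 copies are identical, as are those of the H4 copies, and their coding sequences are similar. Probe sequences were not used here, so how far a probe also bound the transcript of the other copy was not tested. With loess normalization HTA2 minus HTA1 in MTS-GFP was -0.38 as well, and HTB2 minus HTB1 was 0.52 in the empty vector and -0.51 in MTS-GFP. Neighbours that share a promoter region also differed. The deviations of HTA1 and HTB1 differed by up to 0.29 and those of HTA2 and HTB2 by up to 0.27, compared with up to 0.08 for HHT2 and HHF2 and 0.18 for HHT1 and HHF1. With loess normalization these were 0.27, 0.32, 0.18 and 0.17, respectively.

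**Figure D4:**
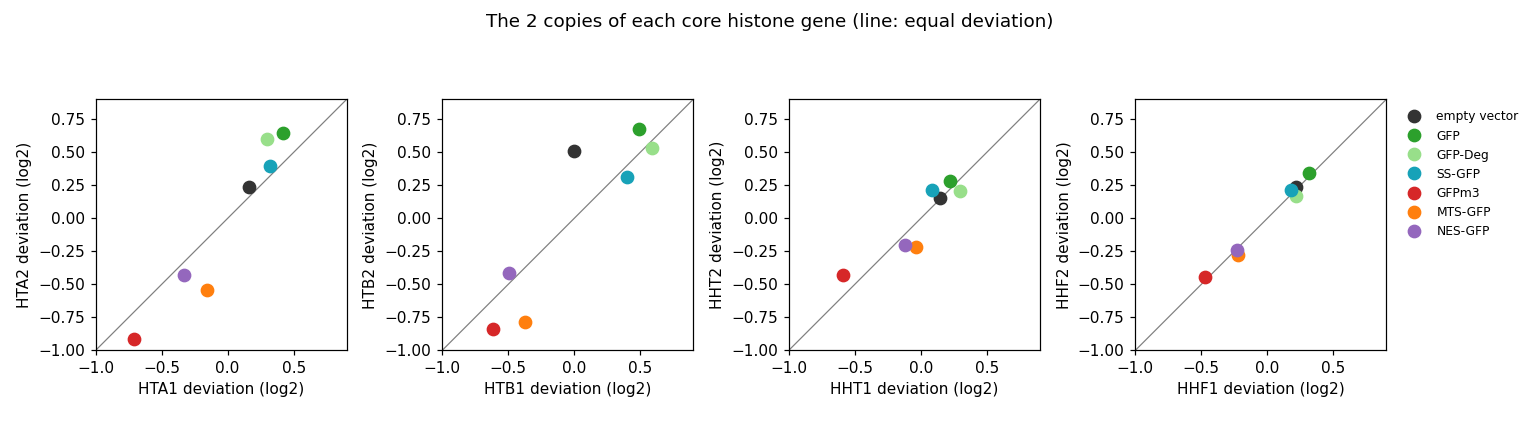
Deviation of the second copy (vertical axis, log2) against that of the first copy (horizontal axis, log2) of H2A, H2B, H3 and H4 genes, 1 point per array, with a line where both are equal. The H4 copies lie on the line, with differences of at most 0.06 in this scaling, and HTB2 lies 0.51 above HTB1 in the empty vector.

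Transcription of histone genes is held back outside S phase by the HIR complex (HIR1, HIR2, HIR3 and HPC2) with the chaperone ASF1, which act on all of the gene pairs except HTA2-HTB2, and SPT10 and SPT21 activate histone promoters. Of 12 regulators, 3 were over 1.5-fold higher in GFPm3 (6.01% of all genes), where 11 of 12 were above their mean and the median was 0.29. These were ASF1 at 0.77, HPC2 at 0.64 and SPT21 at 0.63. In SS-GFP, ASF1 was at -0.69 and SPT21 at -0.63, and the list's median was -0.17. With loess normalization the median in GFPm3 was 0.15 and no regulator was past 1.5-fold in any array, with ASF1 at 0.58, HPC2 at 0.46 and SPT21 at 0.45 in GFPm3.

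Genes that act on histone proteins were listed separately. Of 14 genes for chaperones and the acetylation of new histones, RLF2, the large subunit of the chromatin assembly factor CAF-1, deviated by 0.64 in GFPm3 and -0.73 in SS-GFP. RTT109, which acetylates newly made H3, deviated by -0.69 in MTS-GFP, and no other gene of this list passed 1.5-fold in any array, where 31.7% of all genes passed in at least 1. With loess normalization RLF2 was at 0.47 in GFPm3, below that fold, and at -0.60 in SS-GFP. None of the 13 SWR1 complex genes passed it in any array, with medians of -0.09 to 0.09. SCM3, the chaperone of the centromeric H3 variant CSE4, was at -0.60 in SS-GFP and CSE4 itself at -0.31, and with loess normalization SCM3 was at -0.49, below 1.5-fold. The low values of the histone genes in GFPm3 were therefore not shared by these lists, whose medians there were 0.03 for the chaperones and 0.09 for the SWR1 complex.

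The share of cells in S phase was not measured. Genes transcribed at G1/S and for DNA synthesis had a median of 0.23 in GFPm3, with 22 of 28 above their mean, and of -0.32 in MTS-GFP, with 2 of 28 above it. With loess normalization these medians were 0.10 and -0.34. Of the 28 genes, 7 passed 1.5-fold in at least 1 array, against 31.7% of all genes. The DNA synthesis genes POL30 (the sliding clamp) and RNR1 (a subunit of ribonucleotide reductase) were at -0.77 and -0.72 in MTS-GFP. RFA1, a subunit of the protein that covers single-stranded DNA, was at 0.93 in GFP-Deg. The G1 cyclin gene PCL1 was at 0.82 in the empty vector and at -0.74 in GFP-Deg. In GFP-Deg 3 of the 28 genes were over 1.5-fold higher and 2 lower, against 9.46% and 4.24% of all genes. The median of this list was above 0 in GFPm3, the array in which the histone genes were lowest. Of the genes named above, PCL1 was at 0.58 in GFPm3, whereas RFA1 was at -0.24, RNR1 at -0.13 and POL30 at -0.11. In that array 1 of the 28 genes, not named here, was over 1.5-fold higher and 0 lower, against 6.01% and 6.15% of all genes. Replication licensing genes had medians of 0.20 in GFPm3 and -0.30 in MTS-GFP, and among 14 of them TAH11, which loads the replicative helicase, was the gene past 1.5-fold in any array (31.7% of all genes), at 0.70 in GFPm3. With loess normalization the licensing median in GFPm3 was 0.08.

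Genes of the end of the cycle divided. G2/M genes had a median of 0.23 in GFPm3, -0.24 in MTS-GFP and -0.26 in NES-GFP, and 1 of 12, the mitotic cyclin gene CLB2, passed 1.5-fold in any array (31.7% of all genes), at 0.59 in GFP-Deg. With loess normalization the G2/M median in GFPm3 was 0.12. M/G1 and daughter genes, several of which act in the separation of daughter from mother cell, had a median of -0.64 in GFPm3. There 7 of 12 were over 1.5-fold lower, against 6.15% of all genes, and all 12 were below their mean. EGT2 was at -0.84, SCW11 at -0.84, DSE4 at -0.79 and DSE2 at -0.69. The list's median in GFPm3 was -0.59 with loess normalization, and its medians in MTS-GFP and NES-GFP were -0.04 and -0.06, with no gene past 1.5-fold in either (with loess, DSE4 was at 0.62 in MTS-GFP). Among 5 DNA damage checkpoint targets, HUG1, an inhibitor of ribonucleotide reductase, deviated by -0.75 in the empty vector, -1.40 in GFP, -1.13 in GFP-Deg, -0.05 in SS-GFP, 0.41 in GFPm3, 1.57 in MTS-GFP and 1.36 in NES-GFP. The other 4 stayed within 1.5-fold in this scaling, and 31.7% of all genes passed that fold in at least 1 array.

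Histone and ribosomal protein genes both need high output in growing cells, and 136 of 137 cytosolic ribosomal protein genes were on the array. Their median was 0.11 in the empty vector, 0.39 in GFP, 0.37 in GFP-Deg, 0.24 in SS-GFP, 0.14 in GFPm3, -0.74 in MTS-GFP and -0.47 in NES-GFP. In MTS-GFP 123 and in NES-GFP 27 were over 1.5-fold lower, against 7.74% and 4.45% of all genes, and in GFPm3 none was. Thus the lowest array differed, being GFPm3 for the histone genes and MTS-GFP for the ribosomal protein genes. After loess normalization the ribosomal protein median was 0.22 in GFPm3, -0.37 in MTS-GFP and -0.21 in NES-GFP, and 16 and 2 of these genes were over 1.5-fold lower in the latter arrays.

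**Figure D5:**
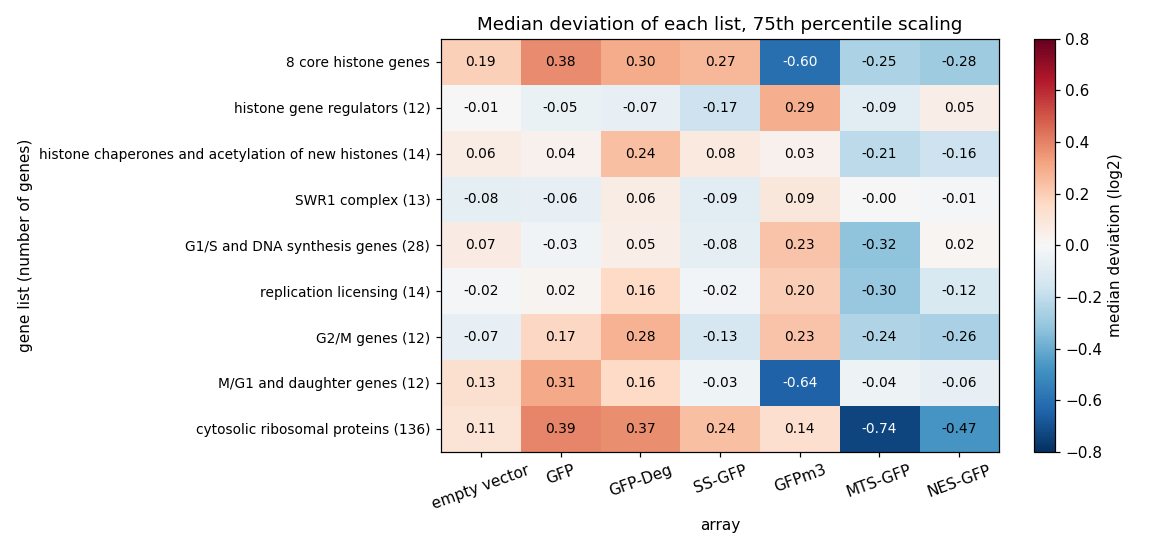
Median deviation (log2, colour scale and printed values) of the 8 core histone genes and of 8 other gene lists (vertical axis, with the number of genes) in each array (horizontal axis), scaled by the 75th percentile. In GFPm3 the core histone genes (-0.60) and the M/G1 and daughter genes (-0.64) are low, and the ribosomal protein genes are lowest in MTS-GFP (-0.74).

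The mean profile of the 8 core histone genes was compared with those of 4533 other genes that varied by at least 0.5 and whose probes exceeded background clearly on each array. Over the 7 arrays, 236 of these had r above 0.9 and 249 below -0.9, so close likeness was common among so few arrays. The 5 most alike were GUP1 (a membrane-bound acyltransferase, r = 0.998), YCR097W-A (0.993), YCR041W (0.987), MDY2 (which acts in the insertion of tail-anchored proteins, 0.986) and VMA11 (a subunit of the vacuolar ATPase, 0.982). The 5 most opposite were SOV1 (-0.995), URC2 (-0.994), BIT61 (a TORC2 subunit, -0.992), RAD26 (a factor of transcription-coupled DNA repair, -0.990) and BIR1 (a subunit of the chromosomal passenger complex, -0.989). With loess normalization their r was 0.83 to 0.90 and -0.76 to -0.86, respectively.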

How the data were processed

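Total RNA was extracted with hot phenol, labelled with Cy3 by the Low Input Quick Amp kit and hybridized to Agilent one-colour yeast arrays with 1 array per strain. The deposited values are the processed signal intensity of each spot, which the authors obtained with Feature Extraction 10.10.1.1 per the file headers, with background subtracted and spatial trends removed. The values in the deposited series table equalled these for all 306544 yeast spots (0 differed, relative tolerance 1e-05). The methods name the agilp package for processing the raw data, without the settings, and that step was not repeated here.

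Spots marked as outliers were left out. Log2 signals were scaled by the 75th percentile of each array, averaged over the spots of a probe and centred on the mean of the 7 arrays. A spot mean of a gene was used without a filter on dim probes, and 5978 of 6225 names were well above background on all 7 arrays (at least 4 spots). With 1 array per construct no test was made: calls are folds over 1.5 (2 as the alternative), and the spot SD covers measurement error only. The number of arrays limits the precision. Slides were read from the file headers, and a slide term cannot be fitted beside construct with these arrays. Alternatives were quantile, loess and median scaling, no scaling, normexp with an offset of 50 before quantile normalization, the median over spots, outlier spots kept, the mean of the same slide, the median of the 7 arrays, and only probes well above background. Python 3.11.15, pandas 2.3.3, R 4.3.3 and limma 3.58.1 were used, and the calculation was tested on simulated data.

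Names of 5737 of 6225 array entries matched a locus tag of the RefSeq annotation of assembly R64. The array was designed on another build, so no coordinates are given. The histone genes and lists were chosen with earlier results of these data known. All histone genes were named. Of each other list, at most 4 genes past 1.5-fold were named, by their largest deviation, and CSE4 beside its chaperone SCM3 was added after its values were seen. The genes most alike were the 5 highest and 5 lowest by Pearson r among those varying by at least 0.5.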

Additional observations from a re-analysis of the deposited data

How the results depend on the processing

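Each value rests on 1 array, so the spread between cultures is unknown and no setting can supply it. Of 700 deviations of single histone genes under another setting, 431 moved by less than 0.11, the pooled spot SD of all probes, and 269 by more. For the histone probes alone the pooled spot SD was 0.05. The 431 include 70 values with only probes well above background, which could not move because every histone spot passed that filter. GFPm3 was below the mean for all 10 histone genes in every setting and their lowest array for 9 or 10 of them. The median of spots, outlier spots kept and only probes well above background moved no core median by more than 0.11. With the median of spots, however, the histone genes over 1.5-fold lower than the empty vector numbered 10 in GFPm3 (from 9) and 3 in MTS-GFP (from 2). The cause of the other shifts was not tested.

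The core median deviation in the order empty vector, GFP, GFP-Deg, SS-GFP, GFPm3, MTS-GFP and NES-GFP moved as follows. With quantile normalization GFP was at 0.25, GFP-Deg at 0.16, SS-GFP at 0.15, MTS-GFP at -0.0076 and NES-GFP at -0.17. With loess these were 0.20, 0.10, 0.12, 0.067 and -0.080. With normexp and quantile they were 0.26, 0.14, 0.16, -0.029 and -0.17. Without scaling GFP was at 0.086, GFP-Deg at 0.11, GFPm3 at -0.38 and NES-GFP at 0.021. Against the mean of the same slide the 7 values were 0.41, 0.074, 0.0025, -0.075, -0.37, -0.045 and -0.041, and against the median of the 7 arrays 0.018 in the empty vector, 0.21 in GFP, 0.18 in GFP-Deg, 0.052 in SS-GFP, -0.39 in MTS-GFP and -0.45 in NES-GFP. The histone genes past the fold in at least 1 array numbered 6 with the 75th percentile, 2 without scaling, 2 against the same slide and 0 at 2-fold. Against the same slide these were HTA2 and HTB2, both higher in the empty vector, and no histone gene was over 1.5-fold lower in GFPm3. Other settings raised the count: in GFPm3 alone, 7 were over 1.5-fold lower with the array median and 9 against the median of the 7 arrays. The share among all genes was counted only with the 75th percentile, as 31.7% at 1.5-fold and 8.96% at 2-fold.

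Against the empty vector, the core median with quantile normalization was 0.041 for GFP, -0.10 for SS-GFP, -0.57 for GFPm3, -0.056 for MTS-GFP and -0.26 for NES-GFP. With loess it was -0.55 for GFPm3, 0.048 for MTS-GFP and -0.16 for NES-GFP. With normexp and quantile it was -0.030 for GFP-Deg, -0.12 for SS-GFP, -0.076 for MTS-GFP and -0.27 for NES-GFP. Without scaling it was -0.10 for GFP, -0.053 for GFP-Deg, -0.44 for GFPm3, -0.29 for MTS-GFP and -0.14 for NES-GFP. SS-GFP minus GFPm3 was 0.61 (quantile), 0.61 (loess), 1.01 (array median), 0.54 (no scaling) and 0.63 (normexp and quantile). MTS-GFP minus GFPm3 was 0.44 (quantile), 0.53 (loess), 0.093 (no scaling) and 0.44 (normexp and quantile). SS-GFP minus MTS-GFP was 0.21 (quantile), 0.043 (loess), 0.34 (no scaling) and 0.22 (normexp and quantile).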
